A study of Mus musculus with 32 samples.

Results

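The genes of arginine and nitric oxide metabolism were examined in bone marrow-derived macrophages (BMDMs), as 10 genes of the 25067 that could be named in the deposited table. They were chosen by name (*Nos2*, *Gch1*, *Slc7a1*, *Slc7a2*, *Ass1*, *Asl*, *Arg1*, *Arg2*, *Odc1* and *Sat1*), each through its most abundant RefSeq transcript. RNA-seq was available for 32 libraries. The experiment asked how loss of the nuclear receptor Nur77, encoded by *Nr4a1*, changes the response of macrophages to lipopolysaccharide (LPS), a component of the bacterial outer membrane that is sensed through TLR4. Wild-type cells (BMDM-WT) and Nur77-knockout cells (BMDM-Nur77-KO) received LPS at 100 ng/ml for 1, 5 or 18 h or were left untreated (0 h), with 4 libraries in each of the 8 groups. All cells came from the bone marrow of male C57Bl6/J mice of 6 to 12 weeks and were differentiated for 7 days with L929-conditioned medium. The knockout was made in the whole body with Cre under the CMV promoter and loxP sites around *Nr4a1*. Knockout mice without Cre were then obtained and compared with wild-type littermates, although the labels give the knockout genotype as cre. Cells were seeded in 4 replicates and the number of mice is not given in the sources used here, so p-values measure only the spread between these libraries, which may be technical.

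Inducible nitric oxide synthase (*Nos2*) makes nitric oxide and citrulline from arginine and needs tetrahydrobiopterin, whose synthesis starts with GTP cyclohydrolase (*Gch1*). Arginine enters the macrophage through the cationic amino acid transporters CAT1 (*Slc7a1*) and CAT2 (*Slc7a2*), and citrulline is turned back into arginine by argininosuccinate synthase (*Ass1*) and argininosuccinate lyase (*Asl*). Arginases (*Arg1* in the cytosol, *Arg2* in mitochondria) use the same substrate and yield ornithine, from which ornithine decarboxylase (*Odc1*) starts polyamine synthesis, while *Sat1* encodes the acetyltransferase that starts polyamine breakdown. In mouse macrophages, high *Nos2* is the classical mark of activation by LPS and high *Arg1* that of activation by interleukin-4.

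Promoter sequence from RefSeq (GRCm38.p6) was at hand for 5 of the 10 genes (*Ass1*, *Slc7a1*, *Gch1*, *Odc1* and *Sat1*). The 250 bases before the start are shown for *Ass1* and *Slc7a1*, which were the genes of these 5 that passed both limits between the genotypes at 18 h of LPS, in opposite directions. The motifs searched, on both strands, were AP-1 (TGANTCA), CRE (TGACGTCA), the E-box (CACGTG) and NBRE (AAAGGTCA), the monomer motif of Nur77, and capitals mark a match. The sequence of *Ass1* is chr2:31470020-31470269 on the plus strand and that of *Slc7a1* is chr5:148399905-148400154 on the minus strand, both 5′ to 3′.
Ass1: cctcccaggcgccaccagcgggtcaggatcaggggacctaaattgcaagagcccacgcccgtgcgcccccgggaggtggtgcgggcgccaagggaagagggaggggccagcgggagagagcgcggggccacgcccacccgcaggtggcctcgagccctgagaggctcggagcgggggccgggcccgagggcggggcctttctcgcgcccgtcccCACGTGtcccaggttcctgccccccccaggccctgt
Slc7a1: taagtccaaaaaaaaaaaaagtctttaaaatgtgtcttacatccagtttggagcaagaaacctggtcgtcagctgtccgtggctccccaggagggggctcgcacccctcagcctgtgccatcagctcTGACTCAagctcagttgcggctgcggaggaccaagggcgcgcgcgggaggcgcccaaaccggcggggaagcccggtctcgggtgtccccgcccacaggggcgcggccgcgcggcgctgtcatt
The capitals in *Ass1* are an E-box whose first base lies 36 bases before the start, and those in *Slc7a1* are an AP-1 match whose first base lies 123 bases before it. Of 32851 promoters of the same length, 6.02% held an E-box, 6.75% an AP-1 match, 1.55% a CRE and 1.34% an NBRE. The 6 promoter entries of the 5 genes, with a further start of *Slc7a1*, held no other match, and no match overlapped another. A match describes letters in this window and not a bound site.

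Levels are given as CPM, counts scaled to the TMM-adjusted library total, and genes are compared with each other as RPKM, which also divides by transcript length. Calls needed an adjusted p under 0.05 together with a log2 difference past 0.58 in either direction between the genotypes, or past 1 between times. Differences in response needed the adjusted p alone. Tests ran over 11185 genes whose RPKM averaged above 1 within any group. All 10 genes passed this filter: 7 did so in every group, while *Nos2* did in 4 groups, *Arg2* in 5 and *Arg1* in 1, BMDM-WT at 1 h. Library totals were 8742364 to 15780927 counts. *Nr4a1* was 4.45 to 7.01 CPM in BMDM-Nur77-KO and 15.5 to 25.8 CPM in BMDM-WT before LPS, and 147 to 243 CPM and 359 to 485 CPM after 1 h, so that knockout libraries still held reads of this gene. At 5 h and 18 h, no library exceeded 1.06 CPM.

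The 8 macrophage markers summed to 10990 to 18910 CPM per library, while the neutrophil markers, mostly *S100a8*, *S100a9* and *Ngp*, summed to 15.8 to 45.6 CPM. B cell, T cell, fibroblast, erythroid and mast cell markers summed to at most 4.70, 0.860, 1.77, 0.355 and 5.31 CPM. At 18 h, macrophage markers summed to 10990 to 12630 CPM in BMDM-Nur77-KO and 14000 to 14660 CPM in BMDM-WT, and the 4 dendritic cell markers to 7.56 to 9.90 CPM and 3.70 to 4.25 CPM. Over all libraries, the dendritic cell markers *Xcr1* and *Ccr7* reached 21.0 and 5.50 CPM, and *Flt3* and *Zbtb46* only 0.301 and 1.13 CPM. The genotypes were also apart in macrophage markers at 5 h, at 13180 to 16030 CPM in BMDM-Nur77-KO and 16480 to 17890 CPM in BMDM-WT. At 1 h, they were apart in neutrophil markers, at 37.1 to 45.4 CPM and 24.9 to 33.9 CPM, and in dendritic cell markers, at 3.51 to 3.91 CPM and 2.39 to 3.33 CPM. T cell markers were apart at 1 h, at 0 to 0.225 CPM in BMDM-Nur77-KO and 0.521 to 0.640 CPM in BMDM-WT. In the same order, they were at 0 to 0.108 CPM and 0.331 to 0.486 CPM at 5 h. At 18 h, they were at 0 to 0.177 CPM and 0.274 to 0.860 CPM. The T cell sums in BMDM-Nur77-KO lay below what 3 counts gave on average in these groups, 0.237, 0.288 and 0.247 CPM. B cell markers were apart at 0 h, at 1.38 to 2.72 CPM and 2.83 to 4.70 CPM. Dendritic cell markers overlapped at 5 h, at 10.3 to 21.9 CPM and 11.8 to 16.5 CPM. Their part in the differences between the genotypes was not tested, and in bulk libraries fewer cells of a type and less RNA per cell cannot be told apart. BMDM-Nur77-KO replicate 1 at 5 h stood apart, with a mean correlation of 0.964 with its group. Its median deviation from the group for the fifth of genes highest in GC content minus that for the fifth lowest was -0.977 on the log2 scale, and in replicate 4 at 18 h this was -0.691. Values without these libraries, or with each library's trend on GC content removed, are given where they change a call for the 10 genes.

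**Figure D1:**
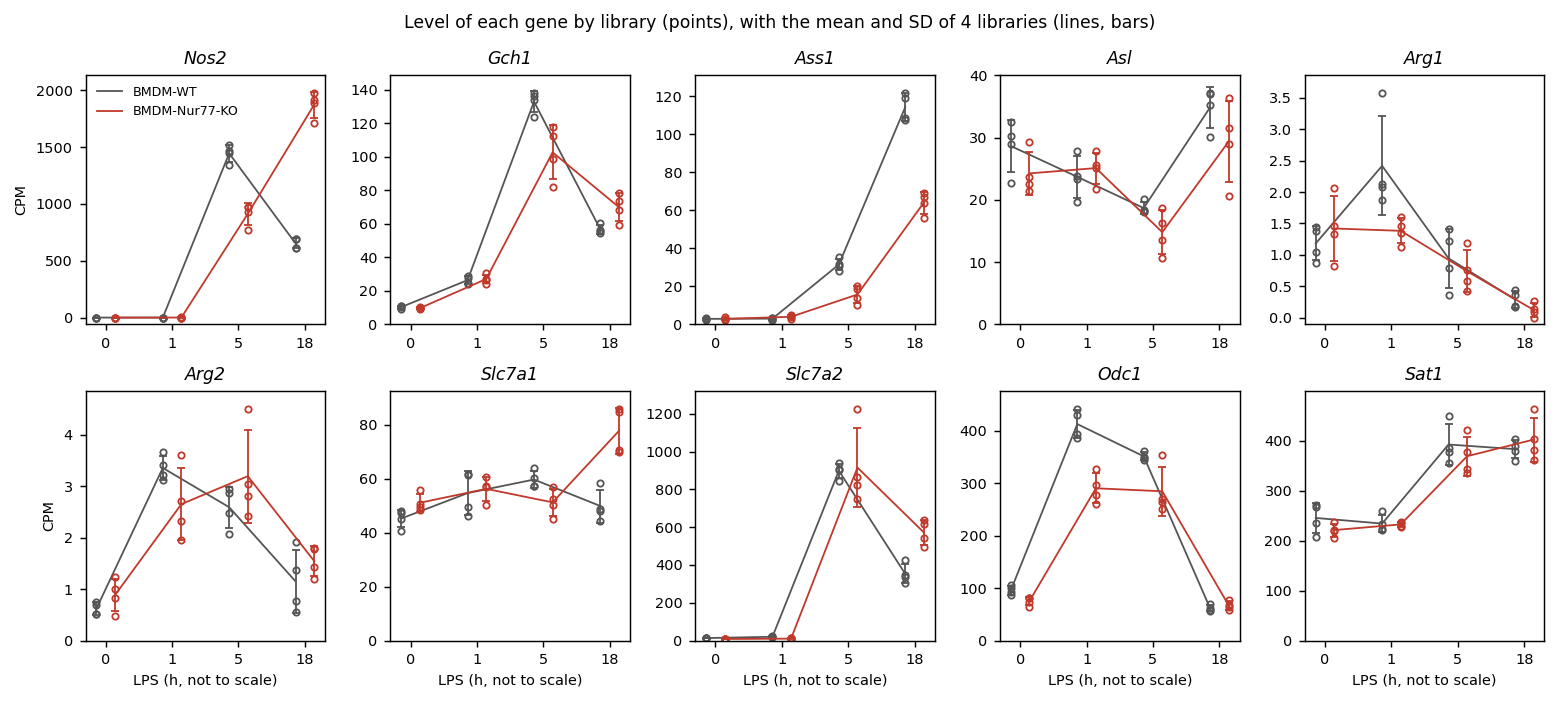
CPM of the 10 genes in each of 32 libraries (points) at 0, 1, 5 and 18 h of LPS (time axis not to scale), with lines through the group means and bars for the SD of 4 libraries, BMDM-WT in gray and BMDM-Nur77-KO in red. *Nos2* was 1345 to 1519 CPM in BMDM-WT at 5 h and 1710 to 1980 CPM in BMDM-Nur77-KO at 18 h.

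*Nos2* (NM_010927, chr11:78920787-78960226), the synthase itself, peaked in BMDM-WT after 5 h of LPS, whereas BMDM-Nur77-KO held most of it after 18 h. Before LPS, the libraries held 0, 0, 2 and 1 counts in BMDM-WT and 0, 0, 0 and 1 in BMDM-Nur77-KO. At 5 h, the level was 1447, 1470, 1519 and 1345 CPM in BMDM-WT and 775, 931, 972 and 973 CPM in BMDM-Nur77-KO. All knockout libraries lay below all wild-type libraries. At 18 h, it was 614, 688, 614 and 693 CPM in BMDM-WT and 1888, 1980, 1915 and 1710 CPM in BMDM-Nur77-KO. The groups again did not overlap, but in the opposite order.

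At 5 h, *Nos2* was lower without Nur77, with a log2 fold change of -0.66 ± 0.14 (SE, edgeR adjusted p = 0.00143). With the trend on GC content removed, this was -0.52 (edgeR adjusted p = 0.000574), under the fold limit. At 18 h, *Nos2* was higher in BMDM-Nur77-KO by 1.52 ± 0.15 (edgeR adjusted p = 2.24e-09), its mean CPM being 287% of that in BMDM-WT. From 5 h to 18 h, *Nos2* fell by 1.15 ± 0.14 on the log2 scale in BMDM-WT (edgeR adjusted p = 3.48e-08) and rose by 1.04 ± 0.14 in BMDM-Nur77-KO (edgeR adjusted p = 2.07e-07). The rise lay close to the fold limit of 1, and was 0.97 without the library that stood apart, 0.99 with DESeq2 and 0.81 with the GC trend removed. The changes from 5 h to 18 h differed between the genotypes by 2.18 ± 0.20 (edgeR adjusted p = 4.90e-09).

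Because *Nos2* was nearly undetected before LPS, its induction is given as a ratio of summed counts per depth, with intervals for counting error only. In BMDM-WT, the ratio to 0 h was 28580 (exact 95% interval 9778 to 138600) at 5 h and 12890 (exact 95% interval 4409 to 62490) at 18 h. In BMDM-Nur77-KO, it was 48000 (exact 95% interval 8614 to 1896000) at 5 h and 98020 (exact 95% interval 17590 to 3872000) at 18 h. These rest on 3 counts in BMDM-WT and 1 in BMDM-Nur77-KO at 0 h. After 1 h, the libraries held 1, 2, 1 and 1 counts in BMDM-WT and 2, 4, 16 and 1 in BMDM-Nur77-KO. The latter was called higher (edgeR adjusted p = 0.0496), but lost its call without any of 6 of the 8 libraries, and the adjusted p was 0.683 without the library with 16 counts.

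*Gch1* (NM_008102, chr14:47153895-47189413), which starts synthesis of the cofactor of the synthase, was raised from 1 h on. In BMDM-WT, it was 9.17 to 11.2 CPM at 0 h and 23.9 to 29.0 CPM at 1 h. At 5 h, it was 138, 136, 134 and 124 CPM, and at 18 h 55.5, 60.6, 56.1 and 54.3 CPM. It rose over 0 h by 1.36 ± 0.11 at 1 h, 3.69 ± 0.11 at 5 h and 2.45 ± 0.11 at 18 h on the log2 scale (largest edgeR adjusted p = 9.36e-12). In BMDM-Nur77-KO, the rise was 1.49 ± 0.11, 3.41 ± 0.11 and 2.86 ± 0.11 (largest edgeR adjusted p = 1.60e-12).

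At 5 h, *Gch1* in BMDM-Nur77-KO was 81.9, 98.5, 113 and 118 CPM, all below BMDM-WT. At 18 h, it was 68.5, 73.5, 78.5 and 59.2 CPM, overlapping BMDM-WT. The differences between the genotypes, -0.37 ± 0.09 at 5 h (edgeR adjusted p = 0.00559) and 0.31 ± 0.10 at 18 h (edgeR adjusted p = 0.0206), were under the fold limit and had the signs seen for *Nos2*. With only the groups compared, the edgeR adjusted p was 0.125 at 5 h and 0.0822 at 18 h. Without BMDM-Nur77-KO replicate 3 at 18 h, the latter difference had an edgeR adjusted p of 0.0926. From 5 h to 18 h, *Gch1* fell by 1.23 ± 0.10 in BMDM-WT, while the difference of -0.55 ± 0.10 in BMDM-Nur77-KO was under the limit. These changes differed by 0.68 ± 0.13 (edgeR adjusted p = 0.000614). The response at 18 h measured from 0 h was not called different (edgeR adjusted p = 0.0864), but was without BMDM-Nur77-KO replicate 4 at 18 h (0.48, edgeR adjusted p = 0.0299).

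Of the arginine transporters, *Slc7a2* (NM_001044740, chr8:40862341-40922070), the inducible CAT2, showed a strong response to LPS. In BMDM-WT, it was 12.5, 13.6, 12.1 and 13.7 CPM at 0 h and 17.4, 17.9, 19.9 and 24.6 CPM at 1 h. It then reached 907, 846, 938 and 904 CPM at 5 h and was 306, 347, 424 and 334 CPM at 18 h. The rise over 0 h was 6.11 ± 0.17 at 5 h and 4.76 ± 0.16 at 18 h in BMDM-WT, and 6.83 ± 0.18 and 6.15 ± 0.17 in BMDM-Nur77-KO (largest edgeR adjusted p = 1.74e-21). At 1 h in BMDM-WT, the difference of 0.61 ± 0.15 was under the fold limit. From 5 h to 18 h, *Slc7a2* fell by 1.35 ± 0.14 in BMDM-WT, while the difference of -0.68 ± 0.13 in BMDM-Nur77-KO was under the limit. Exons of *Slc7a2* share 162 bases with *Gm26584* on the opposite strand, and counting ran with the default settings of the tool, with no strand option named.

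In BMDM-Nur77-KO, *Slc7a2* was 10.7, 6.14, 8.60 and 7.01 CPM at 0 h and 8.99, 8.88, 11.0 and 11.2 CPM at 1 h, below all BMDM-WT libraries of the same time. The differences were -0.69 ± 0.16 at 0 h (edgeR adjusted p = 0.00397) and -0.98 ± 0.16 at 1 h (edgeR adjusted p = 7.10e-05). Without BMDM-Nur77-KO replicate 2, the former was -0.57, under the fold limit. At 5 h, the knockout libraries were at 1224, 823, 867 and 748 CPM, on both sides of BMDM-WT (edgeR adjusted p = 0.899), and the highest was the library that stood apart. At 18 h, they were at 540, 495, 615 and 638 CPM, all above BMDM-WT, with a difference of 0.70 ± 0.14 (edgeR adjusted p = 0.000232). The response at 18 h, measured from 0 h, differed between the genotypes by 1.39 ± 0.21 (edgeR adjusted p = 2.79e-05). The response at 5 h was not called different (edgeR adjusted p = 0.0553), but was with the GC trend removed (0.69, edgeR adjusted p = 0.0194) and without BMDM-Nur77-KO replicate 1 at 0 h or replicate 3 or 4 at 5 h (edgeR adjusted p = 0.0213, 0.0464 and 0.0237). The change from 5 h to 18 h differed by 0.67 ± 0.19 (edgeR adjusted p = 0.0155).

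*Slc7a1* (NM_001301424, chr5:148327410-148399904), the widely expressed CAT1, was 40.8 to 64.2 CPM over all BMDM-WT libraries. In BMDM-Nur77-KO, it was 45.2 to 60.6 CPM up to 5 h and 70.0, 84.6, 85.8 and 70.7 CPM at 18 h, when BMDM-WT was at 44.2, 48.7, 58.6 and 48.0 CPM. The groups did not overlap at 18 h, and the difference was 0.64 ± 0.10 (edgeR adjusted p = 1.25e-05). The difference from 0 h in BMDM-Nur77-KO at 18 h, 0.61 ± 0.10, was under the fold limit for times. The response at 18 h measured from 0 h differed between the genotypes by 0.47 ± 0.14 (edgeR adjusted p = 0.0323), a call that was lost on leaving out any of 11 of the 16 libraries fitted (adjusted p up to 0.0848, without BMDM-WT replicate 1 at 18 h, by edgeR). The differences of 18 h from 5 h, -0.26 ± 0.10 in BMDM-WT and 0.60 ± 0.10 in BMDM-Nur77-KO, were under the limit and opposite in sign. They differed from each other by 0.86 ± 0.14 (edgeR adjusted p = 6.67e-05).

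Per length, *Slc7a2* made up 35.9 ± 1.27% (SD, n = 4) of the summed RPKM of both transporters in BMDM-WT at 0 h and 23.6 ± 5.26% in BMDM-Nur77-KO. At 1 h, the shares were 41.6 ± 2.27% and 25.8 ± 2.49%. In all groups at 5 h and 18 h, the mean share was 93.2% to 97.1%. The genotypes did not overlap in this share at 0 h and 1 h and overlapped later.

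*Ass1* (NM_007494, chr2:31470270-31520670), the first enzyme of arginine recycling from citrulline, was highest at 18 h in either genotype, and less of it was found in BMDM-Nur77-KO at both late times. It was 2.29 to 4.81 CPM in the 16 libraries at 0 h and 1 h. At 5 h, it was 31.9, 27.9, 35.3 and 30.8 CPM in BMDM-WT and 10.4, 13.9, 18.7 and 19.9 CPM in BMDM-Nur77-KO. At 18 h, it was 109, 122, 108 and 119 CPM in BMDM-WT and 69.3, 67.1, 63.8 and 56.1 CPM in BMDM-Nur77-KO. The genotypes overlapped at neither time. The lowest library at each time in BMDM-Nur77-KO was the one with the strongest tilt on GC content.

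The difference between the genotypes in *Ass1* was -1.0 ± 0.14 at 5 h (edgeR adjusted p = 9.99e-06) and -0.84 ± 0.13 at 18 h (edgeR adjusted p = 1.06e-05). It was -0.85 at 5 h and -0.78 at 18 h without those libraries, and -0.86 and -0.72 with the GC trend removed. *Ass1* rose over 0 h by 3.44 ± 0.17 at 5 h and 5.30 ± 0.17 at 18 h in BMDM-WT, and by 2.44 ± 0.17 and 4.46 ± 0.17 in BMDM-Nur77-KO (largest edgeR adjusted p = 1.39e-13). These responses differed between the genotypes by -1.0 ± 0.25 at 5 h (edgeR adjusted p = 0.02) and -0.84 ± 0.24 at 18 h (edgeR adjusted p = 0.0226). Both calls were lost without BMDM-Nur77-KO replicate 4 at 0 h (-0.87 and -0.71) and without BMDM-WT replicate 1 at 0 h (-0.92 and -0.75). Between 5 h and 18 h, *Ass1* rose by 1.86 ± 0.14 in BMDM-WT and 2.02 ± 0.14 in BMDM-Nur77-KO, with no difference called between these changes (edgeR adjusted p = 0.64).

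*Asl* (NM_133768, chr5:130011258-130024381), the next enzyme of recycling, did not pass the fold limit at any time of LPS against 0 h. In BMDM-WT, it was 22.8 to 32.5 CPM at 0 h, 18.1 to 20.2 CPM at 5 h and 30.2 to 37.2 CPM at 18 h. In BMDM-Nur77-KO, it was 21.5 to 29.3 CPM, 10.6 to 18.8 CPM and 20.6 to 36.4 CPM. No difference between the genotypes was called (smallest edgeR adjusted p = 0.128). The differences of 5 h from 0 h, -0.61 ± 0.15 in BMDM-WT and -0.71 ± 0.16 in BMDM-Nur77-KO, and of 18 h from 5 h, 0.90 ± 0.15 and 0.98 ± 0.16, were under the fold limit (largest edgeR adjusted p = 0.000827). The last of these passed the limit without BMDM-Nur77-KO replicate 4 at 18 h (1.12) or replicate 3 or 4 at 5 h (1.12 and 1.03).

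*Arg1* (NM_007482, chr10:24915207-24927470), the cytosolic arginase, was low throughout, with at most 3.59 CPM in any library. In BMDM-WT, it was 0.872 to 1.44 CPM at 0 h, 2.13, 3.59, 1.88 and 2.08 CPM at 1 h, 0.365 to 1.41 CPM at 5 h and 0.172 to 0.433 CPM at 18 h. It rose by 1.05 ± 0.29 at 1 h in BMDM-WT (edgeR adjusted p = 0.00836), and fell by 1.97 ± 0.44 at 18 h against 0 h (edgeR adjusted p = 0.000221). *Arg1* passed the expression filter only through BMDM-WT at 1 h. The tests of this rise and of the genotypes at 1 h thus use the group that admitted the gene. The rise lost its call without BMDM-WT replicate 2 at 1 h (0.79) and without BMDM-WT replicate 2 or 4 at 0 h (0.98 and 0.94). At 1 h, BMDM-Nur77-KO was at 1.46, 1.13, 1.60 and 1.35 CPM, below all BMDM-WT libraries, but the difference was not called (edgeR adjusted p = 0.0959). With only the groups compared, the difference was called (-0.82, edgeR adjusted p = 0.0381).

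Between 5 h and 18 h, *Arg1* fell by 1.67 ± 0.49 in BMDM-WT (edgeR adjusted p = 0.00343). In BMDM-Nur77-KO, it was 0.820 to 2.07 CPM at 0 h and 0.417 to 1.19 CPM at 5 h, a difference of -0.98 ± 0.36 just under the fold limit (edgeR adjusted p = 0.0169). It passed the limit without the library that stood apart (-1.28, edgeR adjusted p = 0.00532), without replicate 3 at 5 h (-1.01) and without replicate 1 or 2 at 0 h (-1.15 and -1.02). At 18 h the libraries held 1, 3, 2 and 0 counts. The ratio of summed counts per depth to 0 h was 0.0852 (exact 95% interval 0.0303 to 0.194), for counting error only. The ratio to BMDM-WT at 18 h was 0.419 (exact 95% interval 0.131 to 1.18), so that no difference between the genotypes was detected with these few counts.

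*Arg2* (NM_009705, chr12:79130788-79156301), the mitochondrial arginase, was 0.478 to 4.49 CPM over all libraries. In BMDM-WT, it was 0.509 to 0.757 CPM at 0 h, 3.13 to 3.66 CPM at 1 h, 2.07 to 2.94 CPM at 5 h and 0.547 to 1.91 CPM at 18 h. It rose over 0 h by 2.44 ± 0.28 at 1 h and 2.07 ± 0.31 at 5 h in BMDM-WT, and by 1.57 ± 0.28 and 1.84 ± 0.28 in BMDM-Nur77-KO (largest edgeR adjusted p = 9.06e-05). No difference between the genotypes was called (smallest edgeR adjusted p = 0.341). From 5 h to 18 h, it fell by 1.15 ± 0.29 in BMDM-WT and 1.05 ± 0.26 in BMDM-Nur77-KO, under the limit without BMDM-WT replicate 1 at 18 h (-0.93) and without BMDM-Nur77-KO replicate 4 at 5 h (-0.84) or replicate 3 at 18 h (-0.93). With the GC trend removed, the value in BMDM-Nur77-KO was -0.94, also under it. The difference of 18 h from 0 h in BMDM-WT, 0.92 ± 0.34, was under the limit (edgeR adjusted p = 0.0187), but passed it without replicate 3 at 0 h (1.02) and without replicate 1 or 2 at 18 h (1.15 and 1.06). Exons of *Arg2* share 285 bases with *Vti1b*, at 57.8 to 98.8 CPM, and 116 with *Gm48780*, both on the opposite strand. The libraries were strand-specific, but counting ran with the default settings of the tool and no strand option is named, so the level of *Arg2* is uncertain.

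Summed per length, *Arg1* and *Arg2* reached at most a group mean of 3.98 ± 0.682 RPKM (SD, n = 4), in BMDM-WT at 1 h. *Nos2* was at 345 ± 17.4 RPKM in BMDM-WT and 218 ± 22.4 RPKM in BMDM-Nur77-KO at 5 h. The corresponding levels at 18 h were 156 ± 10.5 and 447 ± 27.6 RPKM. At these late times, the arginases summed to 0.630 to 3.54 RPKM per library.

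*Odc1* (NM_013614, chr12:17544808-17551502), the first enzyme of polyamine synthesis, was highest in BMDM-WT at 1 h. In BMDM-WT, it was 92.1, 86.7, 99.7 and 106 CPM at 0 h, 441, 393, 387 and 431 CPM at 1 h, 345 to 362 CPM at 5 h and 56.2 to 69.5 CPM at 18 h. It rose by 2.1 ± 0.11 at 1 h and 1.87 ± 0.10 at 5 h over 0 h and fell by 2.51 ± 0.11 from 5 h to 18 h (largest edgeR adjusted p = 3.28e-16). In BMDM-Nur77-KO, the corresponding changes were a rise of 1.95 ± 0.11 and 1.92 ± 0.11 and a fall of 2.08 ± 0.11 (largest edgeR adjusted p = 1.15e-15).

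BMDM-Nur77-KO held 64.7, 73.9, 81.5 and 81.4 CPM of *Odc1* at 0 h and 327, 277, 261 and 296 CPM at 1 h, below all BMDM-WT libraries of the same time. At 5 h, it held 353, 269.5, 264 and 252 CPM, and only the library that stood apart reached the range of BMDM-WT. The differences, -0.35 ± 0.10 at 0 h (edgeR adjusted p = 0.0227), -0.51 ± 0.10 at 1 h (edgeR adjusted p = 0.00113) and -0.30 ± 0.10 at 5 h (edgeR adjusted p = 0.0297), were under the fold limit. With the GC trend removed, the adjusted p was 0.144 at 0 h and 0.232 at 5 h. The response at 18 h measured from 0 h differed between the genotypes by 0.47 ± 0.15 (edgeR adjusted p = 0.0366) and the change from 5 h to 18 h by 0.43 ± 0.15 (edgeR adjusted p = 0.0485). These calls were lost under 11 and 17 of the alternatives, among them removal of the GC trend (adjusted p = 0.0581 and 0.0998 with edgeR) and leaving out BMDM-Nur77-KO replicate 1 at 0 h (0.0958) or BMDM-WT replicate 1 at 18 h (0.116). Both were lost without BMDM-Nur77-KO replicate 4 at 18 h (0.0834 and 0.0971).

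*Sat1* (NM_001291865, chrX:155213126-155216449), which acetylates polyamines for breakdown and export, was 206 to 272 CPM at 0 h and 1 h and 335 to 463 CPM at 5 h and 18 h. Its differences from 0 h, 0.68 ± 0.09 at 5 h and 0.64 ± 0.09 at 18 h in BMDM-WT and 0.74 ± 0.09 and 0.86 ± 0.09 in BMDM-Nur77-KO, were under the fold limit (largest edgeR adjusted p = 2.48e-07). The genotypes overlapped at each time (smallest edgeR adjusted p = 0.286). With the GC trend removed, the differences were -0.27 at 0 h and -0.24 at 5 h (edgeR adjusted p = 0.0431 and 0.0415), under the fold limit.

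**Figure D2:**
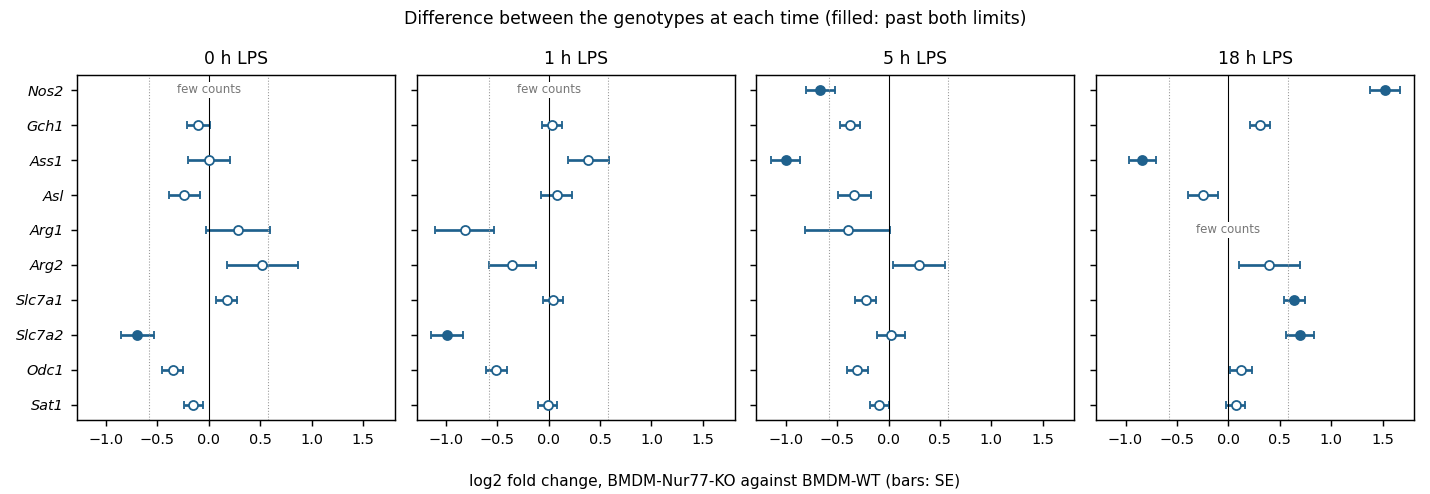
Log2 fold change of each gene in BMDM-Nur77-KO relative to BMDM-WT, in a panel per time of LPS, with SE as bars, dotted lines at 0.58 either way and filled points past both limits (genes marked few counts are not plotted). *Nos2* lies at -0.66 at 5 h and 1.52 at 18 h, and *Ass1* at -1.0 and -0.84.

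Between the genotypes, 1 of the 10 genes was called before LPS, *Slc7a2*, which was lower in BMDM-Nur77-KO, beside 2.38% of all genes tested called lower and 2.36% higher. At 1 h, *Slc7a2* was lower and *Nos2* higher at a few counts, beside 1.36% and 1.48%. At 5 h, 2 genes were lower (*Nos2* and *Ass1*), beside 3.13% lower and 5.66% higher. These shares, 350 and 633 of 11185 genes, depended on the setting. Without the library that stood apart, 226 of 11193 genes were lower and 322 higher. With only the groups compared, 133 of 11185 were lower and 175 higher. At 18 h, 3 genes were higher (*Nos2*, *Slc7a1* and *Slc7a2*) and 1 was lower (*Ass1*), beside 5.76% and 4.17%. The median log2 fold change of the 10 genes was -0.32 at 5 h and 0.21 at 18 h, beside 0.02 and -0.01 over all genes tested. The LPS response measured from 0 h differed between the genotypes for 1 gene at 5 h and 4 at 18 h, beside 3.12% and 9.43% of all genes. *Nos2* was not among them, but its 3 and 1 counts at 0 h are too few to settle this. With every transcript tested, its response at 18 h differed by 2.57 ± 1.49 (edgeR adjusted p = 0.355). For the response at 1 h, edgeR called 0 of the 10, with *Arg1* and *Arg2* at an unadjusted p under 0.05, beside 0.0715% of all genes. DESeq2 called none of the 10 and gave no adjusted p for these 2, beside 36 of 11185 genes called. The change from 5 h to 18 h differed for 5 genes, beside 13.6%.

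Most of the 10 genes responded to LPS in either genotype. In BMDM-WT, 4 were higher at 1 h than at 0 h, beside 3.44% of all genes higher and 1.66% lower. Among these 4 was *Arg1*, which passed the expression filter only through BMDM-WT at 1 h. At 5 h, 6 were higher (all genes 15.9% higher, 17.8% lower), and at 18 h 4 were higher and 1 lower (all genes 13.3% and 14.1%). In BMDM-Nur77-KO, 4 were higher at 1 h (all genes 3.25% higher, 1.27% lower), among them *Nos2* with 23 counts in all. At 5 h, 6 were higher (all genes 16.2% higher, 16.4% lower), and at 18 h 4 were higher and 1 lower (all genes 15.7% and 16.3%). From 5 h to 18 h, 1 gene rose and 6 fell in BMDM-WT (all genes 15.8% and 14.3%), against 2 and 3 in BMDM-Nur77-KO (all genes 14.3% either way).

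**Figure D3:**
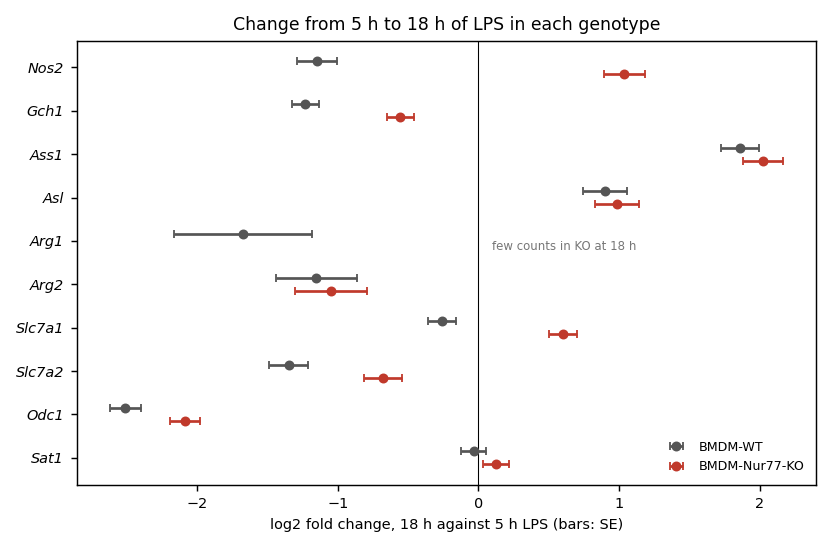
Log2 fold change of each gene from 5 h to 18 h of LPS in BMDM-WT (gray) and BMDM-Nur77-KO (red), with SE as bars; *Arg1* in BMDM-Nur77-KO is not plotted because of few counts. *Nos2* lies at -1.15 in BMDM-WT and 1.04 in BMDM-Nur77-KO, and *Ass1* at 1.86 and 2.02.

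Per length, the partner genes stood in different proportion to *Nos2* in the genotypes, in opposite order at 5 h and 18 h for *Gch1*, *Slc7a2* and the means of *Asl*. *Ass1* RPKM was 5.39 ± 0.474% of *Nos2* RPKM at 5 h and 43.3 ± 0.555% at 18 h in BMDM-WT (SD, n = 4). In BMDM-Nur77-KO, it was 4.21 ± 0.833% and 8.45 ± 0.430%. At 5 h, *Gch1* was 13.9 ± 0.455% of *Nos2* in BMDM-WT and 16.9 ± 1.16% in BMDM-Nur77-KO, *Asl* 2.25 ± 0.147% and 2.79 ± 0.435%, and *Slc7a2* 71.0 ± 4.5% and 118 ± 42.1%. The genotypes did not overlap at 5 h for *Gch1* and *Slc7a2* and overlapped for *Asl* and *Ass1*, and the highest *Slc7a2* ratio, in the library that stood apart, was 180%. *Gch1* was 13.1 ± 0.893% of *Nos2* in BMDM-WT and 5.63 ± 0.407% in BMDM-Nur77-KO at 18 h, *Asl* 9.28 ± 0.585% and 2.70 ± 0.465%, and *Slc7a2* 62.0 ± 11.2% and 35.1 ± 5.96%. The genotypes did not overlap in these ratios at 18 h, all of which have *Nos2* as divisor.

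**Figure D4:**
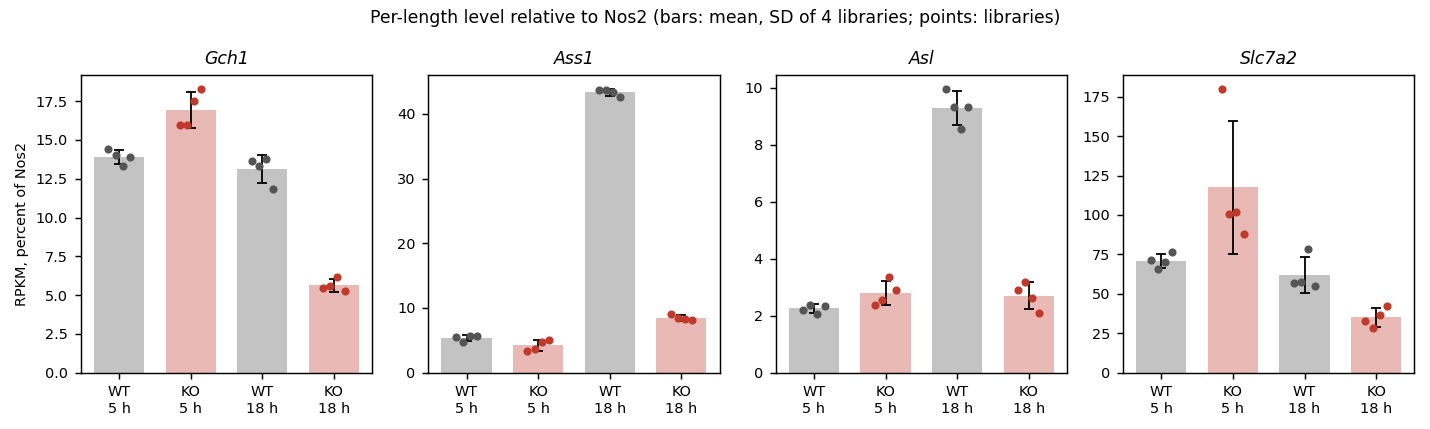
RPKM of *Gch1*, *Ass1*, *Asl* and *Slc7a2* as a percent of *Nos2* RPKM at 5 h and 18 h of LPS, with bars for the mean, error bars for the SD of 4 libraries and points for the libraries. At 18 h, *Ass1* stands at 43.3% in BMDM-WT and 8.45% in BMDM-Nur77-KO.

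Ordered by mean CPM, *Nos2* ran from BMDM-Nur77-KO at 18 h through BMDM-WT at 5 h and BMDM-Nur77-KO at 5 h to BMDM-WT at 18 h, with no overlap between neighbours, and the groups at 0 h and 1 h followed and overlapped each other. For *Ass1*, both 18 h groups and then both 5 h groups led, BMDM-WT first each time and each clear of the next, and the rest overlapped. For *Slc7a2*, the 5 h groups led and overlapped, followed by BMDM-Nur77-KO and then BMDM-WT at 18 h, which were clear of each other. For *Odc1*, BMDM-WT at 1 h led, followed by BMDM-WT at 5 h, and both were clear of the next group. BMDM-Nur77-KO at 1 h and 5 h came next and overlapped. For *Gch1*, BMDM-WT at 5 h led and was clear of BMDM-Nur77-KO at 5 h. *Slc7a1* was highest in BMDM-Nur77-KO at 18 h, clear of BMDM-WT at 5 h, and its other neighbours overlapped. For *Asl* and *Arg1*, all neighbours overlapped, and for *Arg2* and *Sat1* all but the step between the higher and the lower groups.

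Over the 32 libraries, the tested genes whose log2 CPM followed *Nos2* most closely were *Nod1*, *Parp12*, *AA467197*, *Ifit2* and *Themis2*, with Pearson correlations of 0.9961, 0.9957, 0.9955, 0.9952 and 0.9951. For *Arg1*, they were *Mat2a*, *Ndc1*, *Alg6*, *Itga6* and *Deptor*, with 0.9062, 0.8987, 0.8966, 0.8961 and 0.8956. The libraries share 8 conditions, so these values describe likeness over conditions.

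Of 45 further genes of arginine, tetrahydrobiopterin, nitric oxide and polyamine metabolism, 31 were tested. At 1 h in BMDM-WT, edgeR called 0 of them, beside 3.44% of all genes higher and 1.66% lower. Without the fold limit, 2 of them were higher and 1 lower, beside 2270 of all 11185 genes tested in either direction. At the later times, with the fold limit, 2 of the pathway genes were higher and 9 lower at 5 h, and 2 and 10 at 18 h. Their median log2 fold changes were -0.29 and -0.61, beside -0.14 and -0.00410 over all genes. Of all genes tested, 15.9% were higher and 17.8% lower at 5 h, and 13.3% and 14.1% at 18 h. *Slc7a7*, a light chain of a cationic amino acid exporter, was 6.24 to 9.24 CPM at 0 h, 30.4 to 33.1 CPM at 5 h and 25.0 to 31.6 CPM at 18 h in BMDM-WT. It rose by 1.95 ± 0.19 and 1.82 ± 0.19 (largest edgeR adjusted p = 7.34e-10). Its heavy chain *Slc3a2* was 187 to 208 CPM at 0 h and 533 to 592 CPM at 18 h and rose by 1.51 ± 0.08 (edgeR adjusted p = 2.19e-16).

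*Srm*, spermidine synthase, was 15.3 to 22.1 CPM at 0 h and 2.51 to 4.56 CPM at 18 h in BMDM-WT, and fell by 1.57 ± 0.24 at 5 h and 2.41 ± 0.25 at 18 h (largest edgeR adjusted p = 8.61e-07). *Ddah2*, of the family that degrades methylarginines, was 3.26 to 3.97 CPM at 0 h and 0.688 to 0.760 CPM at 18 h, and fell by 2.31 ± 0.28 (edgeR adjusted p = 1.38e-08). *Paox*, a polyamine oxidase, fell by 1.88 ± 0.25 at 5 h (edgeR adjusted p = 9.21e-08). Its level was 3.85 to 6.76 CPM at 0 h, 1.32 to 1.95 CPM at 5 h and 8.84 to 11.8 CPM at 18 h. *Azin2*, an antizyme inhibitor, rose by 1.03 ± 0.31 at 5 h (edgeR adjusted p = 0.00456). It averaged above 1 RPKM only in BMDM-WT at 5 h and 18 h, so the group with this rise also carried it through the filter.

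Between the genotypes, the pathway genes called were all lower in BMDM-Nur77-KO, and numbered 5, 2, 3 and 2 in order of time. Among them, *Nos1ap* averaged above 1 RPKM only in BMDM-WT at 0 h and 1 h, and *Azin2* only in BMDM-WT at 5 h and 18 h. Both passed the expression filter only through groups where they were high, so the direction of their calls is not independent of that filter. Of all genes tested, 2.38%, 1.36%, 3.13% and 4.17% were lower, and 2.36%, 1.48%, 5.66% and 5.76% higher. Without the fold limit, 2, 0, 2 and 2 of the pathway genes were higher and 6, 2, 8 and 3 lower by edgeR, in the same order. Of all 11185 genes tested, 1417, 731, 2730 and 2424 passed in either direction without this limit. *Nos1ap*, an adaptor of neuronal nitric oxide synthase, was 3.33 to 5.20 CPM in BMDM-WT and 0.182 to 0.478 CPM in BMDM-Nur77-KO at 0 h, and the difference was -3.48 ± 0.31 at 0 h and -2.91 ± 0.29 at 1 h (largest edgeR adjusted p = 2.32e-08). In BMDM-WT, it fell by 3.22 ± 0.33 from 0 h to 5 h (edgeR adjusted p = 5.30e-10), and held 7 counts in all at 18 h. At 5 h, it had 16 counts in all in BMDM-WT and 1 in BMDM-Nur77-KO. *Gatm*, which transfers the amidino group of arginine in creatine synthesis, was 74.8 to 86.8 CPM in BMDM-WT and 44.5 to 51.0 CPM in BMDM-Nur77-KO at 0 h. The log2 difference between the genotypes was -0.77 ± 0.15 at 0 h and -0.95 ± 0.15 at 1 h (largest edgeR adjusted p = 0.000547).

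*Amd1*, which makes the aminopropyl donor for polyamines, was 33.6 to 35.7 CPM in BMDM-WT and 18.9 to 24.8 CPM in BMDM-Nur77-KO at 18 h, a difference of -0.64 ± 0.10 (edgeR adjusted p = 1.84e-05), which was -0.57 without BMDM-Nur77-KO replicate 4. *Paox* was 8.84 to 11.8 CPM and 3.90 to 7.63 CPM, a difference of -0.95 ± 0.19 (edgeR adjusted p = 0.000392). At 0 h, *Ddah2*, *Paox* and the spermine oxidase *Smox* were lower, with log2 differences of -0.72 ± 0.22, -0.66 ± 0.20 and -0.58 ± 0.14 (largest edgeR adjusted p = 0.031). These calls were lost on leaving out any of 5 of the 8 libraries for *Ddah2* (edgeR adjusted p up to 0.109) and any of 6 for *Paox* (up to 0.117). For *Smox*, any of 4 took the difference under the fold limit. At 5 h, *Azin2* was lower, with a log2 difference of -1.34 ± 0.35 (edgeR adjusted p = 0.00642). *Oaz1*, the antizyme of ornithine decarboxylase, was 32.0, 58.2, 108 and 103 CPM in BMDM-Nur77-KO, with the library that stood apart lowest, and 105 to 128 CPM in BMDM-WT, a difference of -0.67 ± 0.24 (edgeR adjusted p = 0.0395). The call for *Oaz1* was lost on leaving out any of 5 libraries, with an edgeR adjusted p of 0.169 without the library that stood apart.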

How the data were processed

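RNA-seq of 32 libraries (8 groups of 4) was used. The authors aligned paired reads to mm10 with HISAT2 2.1.0, filtered them on mapping quality and summed tags per RefSeq transcript with HOMER. The deposited values are expected counts without normalization, in which each mate adds 0.5, so 28.6% of them are not whole. Of 42361 transcripts, 93 without a gene name were left out (0.233% to 1.37% of counts per library). A gene was represented by its most abundant transcript, and counts were rounded. Lengths and GC content were taken from GENCODE transcripts, and positions from RefSeq (GRCm38.p6).

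Counts were TMM-scaled and tested with the quasi-likelihood test of edgeR 4.0.16 (R 4.3.3) in 1 model of 8 group means, with Benjamini-Hochberg adjustment over 11185 genes, after the code had been tested on simulated data. Genes named were the 10 members, *Nr4a1*, pathway genes called between the genotypes, the 3 largest called changes each way in BMDM-WT at 5 h and 18 h, and the 5 genes most like *Nos2* and *Arg1*. Members and lists were chosen with earlier results of these data known. The comparison of the 5 h to 18 h change between genotypes, and removal of a lowess trend (span 0.3) on GC content, were added after seeing the data. Other alternatives were DESeq2 1.42.0, its size factors, filterByExpr, every transcript, only the groups compared, a replicate block, no fold limit and leaving out each library. Where a group had at most 3 counts per library, count ratios replace fitted folds. Intervals cover counting error only.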

Additional observations from a re-analysis of the deposited data

Results flagged for a closer look

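In groups of 4 libraries, a library at the edge was compared with the rest by Dixon's test for 76 pairs of gene and group, and 2 passed, where chance gives about 1 in 20. *Asl* was 20.18 CPM in BMDM-WT replicate 2 at 5 h, with the others at 18.08 to 18.3 CPM. *Arg1* was 3.587 CPM in BMDM-WT replicate 2 at 1 h, with the others at 1.875 to 2.132 CPM.

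The response to LPS differed between the genotypes by a test of the difference itself, given here as the log2 fold change in BMDM-Nur77-KO minus that in BMDM-WT. Measured from 0 h, *Ass1* differed by -1.0035 at 5 h and -0.8402 at 18 h, and *Slc7a1* by 0.4655, *Slc7a2* by 1.3904 and *Odc1* by 0.4721 at 18 h. In the change from 5 h to 18 h, *Nos2* differed by 2.1849, *Gch1* by 0.6782, *Slc7a1* by 0.8607, *Slc7a2* by 0.6711 and *Odc1* by 0.4254.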

How the results depend on the processing

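Of 77 fold changes of the 10 genes with an adjusted p under 0.05, leaving out those at few counts, 0 changed sign under any alternative and 11 lost a call under at least 1. Without a fold limit, the genes called were 2 instead of 1 between the genotypes at 0 h and 4 instead of 2 at 5 h. Of all 11185 genes tested, 1417 and 2730 passed without it. At 18 h against 0 h, 8 instead of 5 were called in either genotype, beside 7424 of all genes in BMDM-WT and 7774 in BMDM-Nur77-KO. From 5 h to 18 h in BMDM-Nur77-KO, 9 instead of 5 were called, beside 7754. Other comparisons gained calls too, such as BMDM-WT at 5 h against 0 h, with 8 higher and 1 lower, beside 7845. With the GC trend removed and the fold limit kept, the genes called were 1 between the genotypes at 5 h and 3 from 5 h to 18 h in BMDM-Nur77-KO. Between the genotypes at 1 h, testing every transcript gave 1 instead of 2. Fitting only the groups compared called *Arg1* at that time and not *Nos2* (edgeR adjusted p = 0.0381 and 0.116). For the difference in response at 5 h, DESeq2 and removal of the GC trend gave 2 instead of 1, and fitting only the groups compared gave 0. Leaving out each library in turn gave 0 to 1 genes between the genotypes at 0 h, 1 to 2 at 1 h, 0 to 2 for the difference in response at 5 h and 2 to 4 at 18 h. No pairing of the libraries by replicate number was seen: same-numbered deviations correlated at -0.704 to 0.466, and in no pair of groups were all 4 over 0.1. A pairing could be hidden by deviations of single libraries, such as the tilts on GC content, so this check cannot exclude it. A replicate block gave 1 gene between the genotypes at 1 h and 2 for the difference in response at 5 h, and *Odc1* lost both of its differences in response. The cause was not tested. Depth limits *Nos2* before 5 h, *Arg1* and *Arg2*.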
